A study of Mus musculus with 4 samples.

Results

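The potassium, sodium, calcium and pacemaker channel genes were followed in cardiac progenitor cells that lacked Isl1, a homeodomain regulator of the progenitors that lengthen the early heart tube. Members were taken by name, as every gene symbol that starts with Kcn or Cacn, the 4 Hcn genes, and the Scn genes that encode a sodium channel pore or beta subunit, leaving out the potassium channel symbols of the imprinted Cdkn1c cluster. This gave 137 of the 20701 gene symbols in the count table. Of these, 79 had at least 20 reads summed over the 4 libraries and are described here, 52 had 1 to 19 reads and 6 had none. In all, 13403 symbols reached 20 reads.

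These proteins let ions cross the cell membrane along their gradients and so set the membrane voltage of a cell. In heart muscle, sodium channels carry the upstroke of the action potential, L-type calcium channels hold its plateau and trigger contraction, and potassium channels return the membrane to rest. The hyperpolarization-activated channels of the Hcn family, together with T-type and some L-type calcium channels, bring pacemaker cells back to threshold between beats.

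The cells were differentiated from mouse embryonic stem cells of the E14 Tg(Nkx2-5-EmGFP) line, which carry a green fluorescent reporter driven by regulatory sequence of Nkx2-5, a transcription factor gene of early heart cells. GFP+ cells were sorted on day 5 and their poly(A) RNA was sequenced in 4 libraries, 2 from control clones and 2 from Isl1-/- clones made by CRISPR/Cas9 (Isl1_KO), with both groups carrying the reporter. The 2 libraries of a group came from different clones of 1 parent line, so the spread within a group is that between clones, and a trait of the clones cannot be told apart from the genotype. Cells in which the reporter was off were not sampled.

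Library totals, with 1 transcript entry per symbol, were 8821536 and 9147419 reads for control and 13186103 and 11388326 for Isl1_KO. Levels are given in CPM, the reads of a gene as a part of its library's TMM-scaled total, and 3 reads correspond to between 0.231 and 0.341 CPM. Differences are log2 fold changes of Isl1_KO over control from the quasi-likelihood test of edgeR adjusted by Benjamini-Hochberg across the 12715 genes tested, and a gene was called below an adjusted p of 0.05. Isl1 itself had 309 and 326 reads in control and 17 and 24 in Isl1_KO, a log2 fold change of -4.39 ± 0.21 (SE, n = 2 per group, adjusted p = 0.00276, edgeR). Markers of contracting cardiomyocytes were strong in control and low in Isl1_KO. The 18 genes summed to 2245 and 2327 CPM in control against 188.3 and 134 CPM in Isl1_KO. Of the 17 that were tested, 15 were called lower. The cells are labelled as cardiac progenitors, and no list of progenitor markers was summed. Summed endothelial markers were at 460 to 461.2 CPM in control and 415.5 to 438.4 CPM in Isl1_KO, with 0 of 12 called by edgeR, though 5 had an unadjusted p under 0.05 and were lower in Isl1_KO. These were Cldn5 (log2 fold change -2.35), Sox18 (-1.71), Tek (-1.18), Tie1 (-1.02) and Emcn, which had no read in either Isl1_KO library, while Kdr, with 1909 to 3200 reads a library, made up much of the sum and was at 0.11. Neural markers summed to 83.27 to 88.65 CPM in control and 75.1 to 89.54 CPM in Isl1_KO, with 0 of 8 tested genes called by edgeR and 2 at an unadjusted p under 0.05; Neurog2 had no read in control. Smooth muscle markers summed to 2543 and 2549 CPM in control and to 2183 and 750.2 CPM in Isl1_KO, with 1 of 8 called lower. The part of any of these cell types in the channel results was not tested, and in a bulk sample fewer cells of a type cannot be told apart from less RNA per cell.

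Of the 61 channel genes with enough reads to test, 7 fell in Isl1_KO and 0 rose. They included the pacemaker channel gene Hcn4, the calcium channel pore genes Cacna1c, Cacna1d and Cacna1e, the calcium channel beta subunit gene Cacnb2, and Kcnf1, a modifier subunit of voltage-gated potassium channels. The 7 make up 11.5% of the channel genes tested, where 2.45% of all 12715 genes were called, 1.94% lower and 0.511% higher. With an unadjusted p under 0.05, 17 channel genes were lower and 2 higher by edgeR, where 12.2% and 11% of all genes were. DESeq2 called 9 of 65 lower and 0 higher, where 3.34% and 1.33% of 12933 genes were. The median log2 fold change over the 61 was -0.34, beside -0.0025 over all genes tested. The test needed about 0.974 CPM in at least 2 libraries: 41 of the 61 reached this in both groups, 15 only in control, 2 only in Isl1_KO and 3 in 1 library of each. Kcnf1 and Cacnb2 were tested through their control level alone, so for these a lower value in Isl1_KO was partly fixed by the filter. With either control library left out, Hcn4 was the only channel gene still called. With an Isl1_KO library left out, 29 of 68 channel genes were called without replicate 1 and 21 of 65 without replicate 2, the 7 among them, but 49.4% and 32.7% of all genes were then called too, so these shares of channel genes were no higher than those of all genes.

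**Figure D1:**
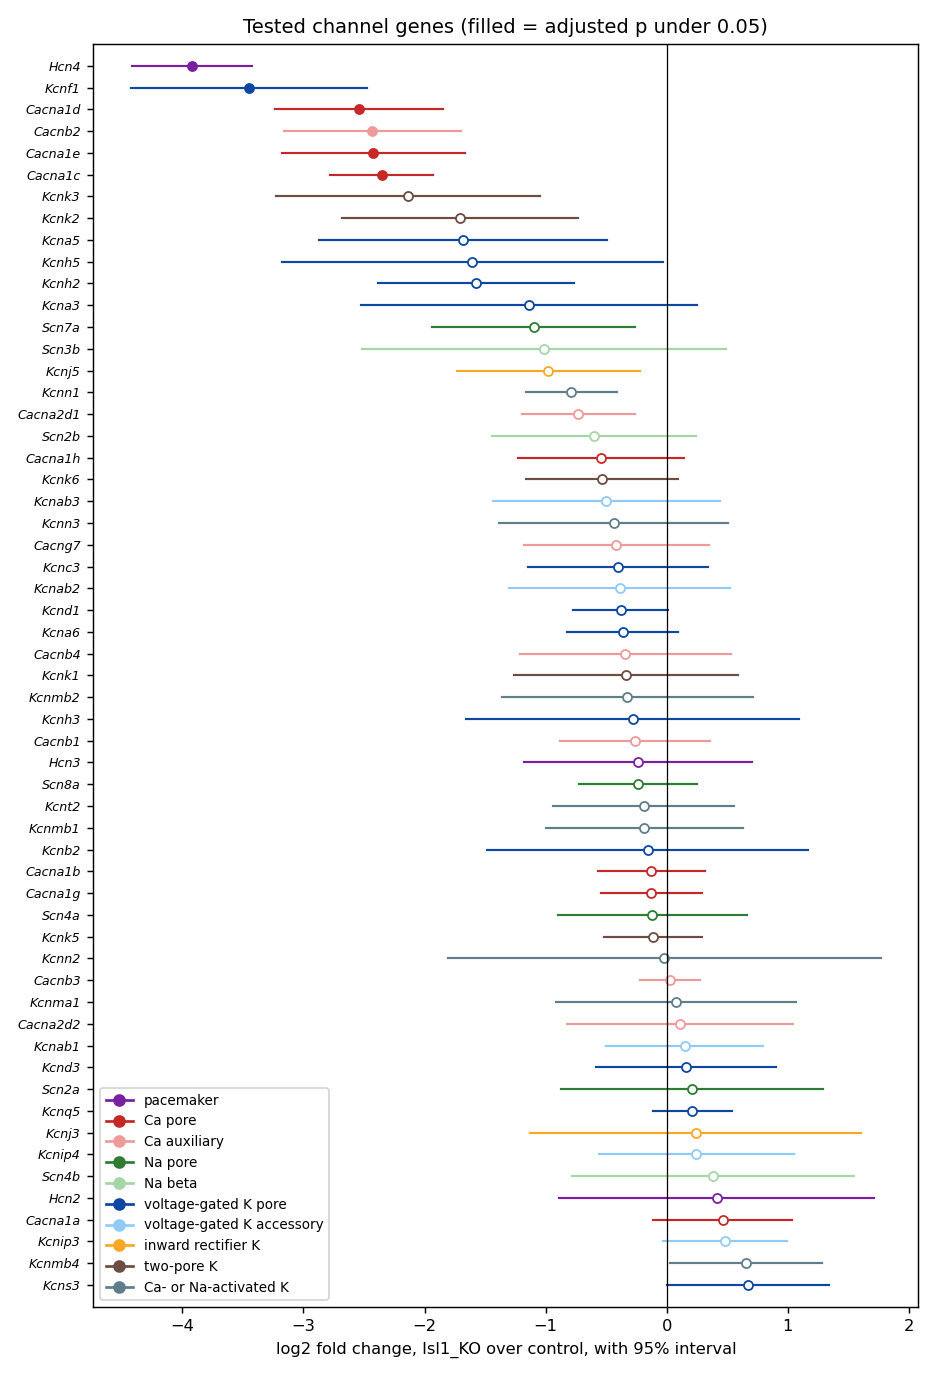
Log2 fold change of Isl1_KO over control for the tested channel genes reported here, with 95% intervals from edgeR, ordered by size and coloured by channel family. Those with an adjusted p under 0.05, drawn as filled points, lie between -3.92 (Hcn4) and -2.35 (Cacna1c), and most of the other genes lie between -1 and 1 with wide intervals.

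Promoter windows of called genes were searched because these genes fell in cells without Isl1, and homeodomains such as that of Isl1 are known to bind DNA with a TAAT core. Windows hold 250 bases before a gene's start in RefSeq on GRCm38.p6, a different build from the one used for counting, and 6 of the 7 called genes had 10 windows in all. The 4 windows printed are that of Hcn4 and the 3 that hold TAAT. The 6 not printed, 3 of Cacna1c and 1 each of Cacna1d, Cacna1e and Cacnb2, hold none of the motifs searched and have a GC content of 50.4% to 86.4%. Capitals mark TAAT on either strand, so that ATTA is the same motif read from the other strand, or the longer CTAATG, which contains it.

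Hcn4 (chr9:58822699-58822948, + strand): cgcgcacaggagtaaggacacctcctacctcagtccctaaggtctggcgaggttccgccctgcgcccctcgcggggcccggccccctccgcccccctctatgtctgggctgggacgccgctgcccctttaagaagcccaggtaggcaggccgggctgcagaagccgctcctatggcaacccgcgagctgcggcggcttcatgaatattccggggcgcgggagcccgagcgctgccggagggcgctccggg
Kcnf1 (chr12:17176889-17177138, - strand): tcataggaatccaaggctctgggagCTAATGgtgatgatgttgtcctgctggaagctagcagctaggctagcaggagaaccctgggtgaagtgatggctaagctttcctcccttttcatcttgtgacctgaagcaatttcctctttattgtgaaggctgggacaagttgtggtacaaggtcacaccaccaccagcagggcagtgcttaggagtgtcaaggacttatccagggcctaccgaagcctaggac
Cacna1d (chr14:30491157-30491406, - strand): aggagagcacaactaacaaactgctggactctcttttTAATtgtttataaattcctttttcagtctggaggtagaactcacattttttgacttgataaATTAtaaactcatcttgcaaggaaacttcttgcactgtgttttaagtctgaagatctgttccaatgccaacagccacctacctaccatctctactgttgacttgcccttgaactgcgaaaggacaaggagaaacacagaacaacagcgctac
Cacnb2 (chr2:14823842-14824091, + strand): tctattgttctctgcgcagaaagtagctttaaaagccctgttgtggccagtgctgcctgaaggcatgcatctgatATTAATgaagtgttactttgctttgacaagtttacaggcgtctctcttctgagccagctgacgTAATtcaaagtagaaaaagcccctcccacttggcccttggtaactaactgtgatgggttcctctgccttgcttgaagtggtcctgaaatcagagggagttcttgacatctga

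TAAT was present in 3 of the 10 windows, beside 54.9% of all 32851 windows in the table. The window of Hcn4 had a GC content of 71.2%, beside a median of 52.4% over all windows, and held none of the motifs searched. Kcnf1 held CTAATG, which 6.36% of all windows held. Neither the GATA motif AGATAA (9.99% of all windows) nor the MEF2-type motif CTANNNNTAG (3.2%) was in any of the 10, with both strands searched. A match is a run of letters in the window and does not show that a factor binds there.

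Among the pacemaker channels, which open when the membrane is hyperpolarized and carry the inward current that starts the next beat, Hcn4 fell in Isl1_KO while Hcn2 and Hcn3 did not pass the test. Hcn4, the main pacemaker channel of the sinoatrial node and of early heart muscle, lies at chr9:58671319-58708762 (plus strand, NCBIM37). It had 155 and 159 reads in the control libraries and 14 in each Isl1_KO library, or 17.6 and 17.4 CPM against 1.08 and 1.22 CPM. Its groups stood far apart and its values within each group were close. The log2 fold change was -3.92 ± 0.20 (SE, 95% interval -4.42 to -3.43, adjusted p = 0.00276, edgeR).

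Hcn2 had 1.48 and 0.547 CPM in control and 1.46 and 1.22 CPM in Isl1_KO, and its groups overlapped (log2 fold change 0.41, 95% interval -0.89 to 1.72, adjusted p = 0.67, edgeR). Hcn3 had 1.59 and 1.31 CPM in control and 0.999 and 1.48 CPM in Isl1_KO, again with overlap (log2 fold change -0.24, interval -1.18 to 0.70). Intervals this wide leave room for a change of over 2-fold in Hcn2 and in Hcn3. Hcn2 was tested through its Isl1_KO level alone, so a higher value in Isl1_KO was partly fixed by the filter. The exons of Hcn3 overlap those of Pklr on the opposite strand, and since reads were counted on both strands together, the reads of such a pair cannot be told apart.

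**Figure D2:**
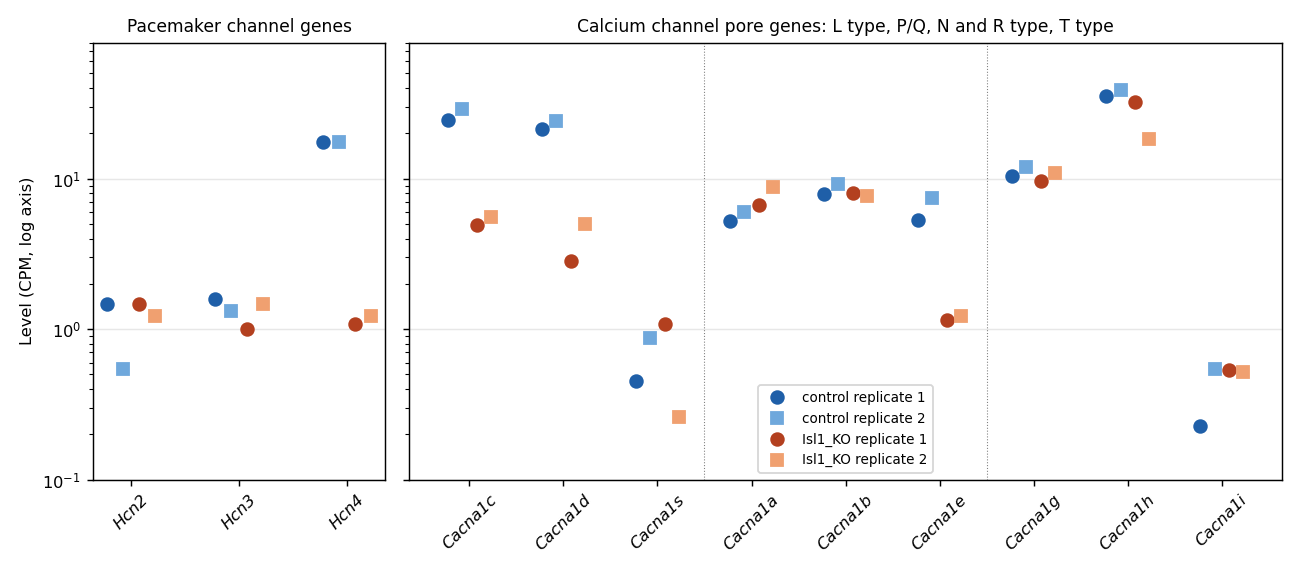
Level in CPM of pacemaker and calcium channel genes in each library, on a log axis, with control and Isl1_KO libraries as separate symbols. Hcn4, Cacna1c, Cacna1d and Cacna1e had both Isl1_KO libraries well below both control libraries, and Hcn2, Hcn3, Cacna1b and Cacna1g had overlapping groups.

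Of the voltage-gated calcium channel pore genes, 3 of the 7 tested were called lower (42.9%) and 0 higher, where 1.94% and 0.511% of all genes tested were. Their median log2 fold change was -0.54, beside -0.0025 over all genes tested. Cacna1c encodes the main L-type pore of heart muscle and lies at chr6:118542314-119146249 (minus strand). It had 24.4 and 29.1 CPM in control and 4.92 and 5.55 CPM in Isl1_KO. Both Isl1_KO libraries were far below both control libraries, with a log2 fold change of -2.35 ± 0.17 (SE, adjusted p = 0.00687, edgeR). The 11 transcript entries of Cacna1c, which share most of their reads, gave -2.41 to -2.27 when each was fitted.

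Cacna1d, the L-type pore that opens at more negative voltages and serves pacemaking, lies at chr14:30853135-31304342 on the minus strand. Its level was 21.4 and 24.1 CPM in control and 2.84 and 5.03 CPM in Isl1_KO. The groups did not overlap, although the Isl1_KO libraries differed more from each other than those of Cacna1c (log2 fold change -2.54 ± 0.27, SE, adjusted p = 0.0213, edgeR). Exons of Cacna1d overlap those of Chdh on the opposite strand.

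Cacna1e, the pore of the R-type calcium channel, lies at chr1:156239649-156573049 on the minus strand. It stood at 5.33 and 7.44 CPM in control and 1.15 and 1.22 CPM in Isl1_KO, with no overlap. The log2 fold change was -2.42 ± 0.30 (SE, adjusted p = 0.0306, edgeR). It lost its call when the test asked for a change beyond 1.5-fold.

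The T-type pores, which open at low voltage, did not pass the test. Cacna1g had 10.4 and 11.9 CPM in control and 9.69 and 10.9 CPM in Isl1_KO, with overlapping groups (log2 fold change -0.13, 95% interval -0.54 to 0.29). Its interval holds no change of 2-fold in either direction. Cacna1h had 35.4 and 38.6 CPM in control and 32.3 and 18.3 CPM in Isl1_KO (log2 fold change -0.54, interval -1.23 to 0.14, adjusted p = 0.298, edgeR). The values of Cacna1h rest on reads that Tpsg1, which overlaps it on the opposite strand, could share. Of the pores best known from nerve endings, Cacna1a (P/Q-type) had 5.22 and 6.02 CPM in control and 6.69 and 8.85 CPM in Isl1_KO, the only pore gene tested with both Isl1_KO libraries above both control libraries (adjusted p = 0.294, edgeR). Cacna1b (N-type) overlapped between the groups, with a log2 fold change of -0.13.

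Summed per transcript length, the L-type pores were at 4.35 and 5.04 RPKM in control and 0.898 and 1.03 RPKM in Isl1_KO. The T-type pores were at 5.62 and 6.23 RPKM in control and 5.18 and 3.61 RPKM in Isl1_KO. The L-type share of all calcium pore RPKM was thus 36.6% and 37.1% in control and 11.4% and 15.5% in Isl1_KO, and the T-type share was 47.4% and 45.9% against 66% and 54.4%.

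The accessory subunits of calcium channels set how many pores reach the membrane and how they open. Of 7 tested, 1 was called lower (14.3%) and 0 higher, where 1.94% and 0.511% of all genes tested were. Cacnb2 is the main beta subunit of the cardiac L-type channel and lies at chr2:14525933-14909535 (plus strand). Its level was 5.90 and 6.02 CPM in control and 1.31 and 0.868 CPM in Isl1_KO, a log2 fold change of -2.43 ± 0.29 (SE, adjusted p = 0.0278, edgeR) that also lost its call against a 1.5-fold change. Cacnb3, the most abundant channel gene per length in both groups at a mean of 17.8 RPKM in control and 18.1 RPKM in Isl1_KO, had 48.6 and 51.1 CPM in control and 53.6 and 48 CPM in Isl1_KO. The groups of Cacnb3 overlapped and its interval was narrow (log2 fold change 0.03, 95% interval -0.22 to 0.28). As a share of the summed RPKM of the beta subunits, Cacnb2 made up 7.35% and 7.04% in control and 1.6% and 1.16% in Isl1_KO, and Cacnb3 84.7% and 83.7% against 91.9% and 90%.

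Cacna2d1, the alpha2delta subunit that accompanies cardiac L-type pores, had 53.6 and 53.1 CPM in control and 38 and 26.3 CPM in Isl1_KO. Its groups did not overlap, and its log2 fold change of -0.73 (interval -1.20 to -0.26) had an adjusted p of 0.111 by edgeR and 0.0331 by DESeq2. Cacna2d2 split the Isl1_KO clones, with 14.8 and 16.5 CPM in control and 10.8 and 23.2 CPM in Isl1_KO.

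**Figure D3:**
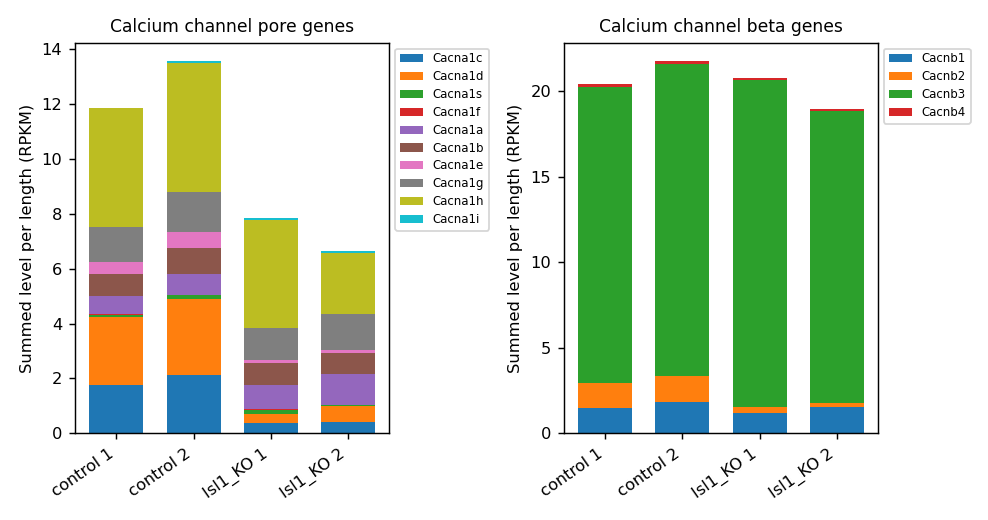
Summed level per transcript length (RPKM) of the calcium channel pore and calcium channel beta genes in each of the 4 libraries, stacked by gene. The pore sum is 11.9 and 13.6 RPKM in control and 7.85 and 6.64 RPKM in Isl1_KO, while the beta sum stays between 19 and 21.8 RPKM and is mostly Cacnb3.

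The voltage-gated potassium channel pores were the largest family, with 24 of 39 genes at 20 or more reads and 14 tested. Of the 14, 1 was called lower (7.14%) and 0 higher, where 1.94% and 0.511% of all genes tested were. The called gene, Kcnf1, encodes a subunit that forms no channel by itself and changes the gating of Kv2 partners. It lies at chr12:17178908-17183694 on the minus strand. It had 26 and 24 reads in control and 3 in each Isl1_KO library, or 2.95 and 2.63 CPM against 0.231 and 0.26 CPM. Control exceeded Isl1_KO by a ratio of 11.4 (95% counting interval 4.88 to 32.5, adjusted p = 0.0227, edgeR). Reads had no molecular identifiers, so such intervals and the floor of 3 reads hold counting error and nothing else. Of the Kv2 pores, Kcnb2 was near 1 CPM with overlapping groups, at a log2 fold change of -0.16 and an interval that reaches beyond 2-fold both ways.

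Kcnh2 encodes the pore of the rapid delayed rectifier current, which ends the cardiac action potential, and was next after Cacnb3 among the channel genes per length in control, at a mean of 8.69 RPKM. It had 36.8 and 36.3 CPM in control and 16.4 and 7.98 CPM in Isl1_KO. The groups did not overlap, but the Isl1_KO clones differed from each other by more than the control clones, and with a log2 fold change of -1.58 ± 0.32 (SE, 95% interval -2.38 to -0.77) the adjusted p was 0.079 by edgeR. DESeq2 gave 0.000106 for the same gene. Its share of the summed RPKM of the family was 37.5% and 35.8% in control and 25.1% and 12.6% in Isl1_KO.

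Kcnq5, a pore of M-type currents, had 16.9 and 18.7 CPM in control and 19.7 and 21.6 CPM in Isl1_KO, with a log2 fold change of 0.21 (interval -0.11 to 0.54). Its share of the family was 9.55% and 10.2% in control and 16.7% and 18.9% in Isl1_KO, while its own level did not pass the test. Kcna5, which carries the ultrarapid current of atrial muscle, had 1.13 and 1.53 CPM in control and 0.308 and 0.521 CPM in Isl1_KO (log2 fold change -1.68, interval -2.87 to -0.49, adjusted p = 0.13, edgeR). Kcna5 was tested through its control level alone, so a lower value in Isl1_KO was partly fixed by the filter. Kcnd3, a pore of the transient outward current, overlapped between the groups at 3.86 and 2.52 CPM in control and 3.38 and 3.73 CPM in Isl1_KO. Kcns3, another silent modifier of Kv2 pores, had 3.06 and 4.16 CPM in control and 5.07 and 6.51 CPM in Isl1_KO, the highest log2 fold change among the tested channel genes at 0.67 (interval 0.0026 to 1.35, adjusted p = 0.214, edgeR). Kcnh7, an ether-a-go-go-related pore gene, had too few reads to test, with 16 and 7 in control and 0 in both Isl1_KO libraries. The ratio of control to Isl1_KO had a lower 95% counting limit of 7.86, which leaves out the spread between clones, and Kcnh7 overlaps Gca on the opposite strand.

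The accessory subunits of voltage-gated potassium channels had 5 genes tested and 0 called by edgeR, with 0 also at an unadjusted p under 0.05 and by DESeq2. Their median log2 fold change was 0.15, the only family median above 0. Kcnip3, a calcium-binding partner of Kv4 pores also known as a transcriptional repressor, had 10.7 and 12.2 CPM in control and 13.6 and 18.5 CPM in Isl1_KO, both above the control libraries (log2 fold change 0.48, interval -0.03 to 1.00, adjusted p = 0.235, edgeR).

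In the inward rectifier family, which holds the resting voltage, only Kcnj3 and Kcnj5 of 15 genes had enough reads to test. Both encode subunits of the acetylcholine-gated channel that slows the heart under vagal tone. Kcnj5 had 10.2 and 9.74 CPM in control and 3.69 and 6.51 CPM in Isl1_KO, without overlap (log2 fold change -0.98, interval -1.73 to -0.22, adjusted p = 0.148, edgeR). Kcnj3 had 1.13 and 1.09 CPM in control and 0.769 and 1.91 CPM in Isl1_KO, with the Isl1_KO clones on either side of control. Kcnj2, which carries the resting current of mature heart muscle, had 8 reads over the 4 libraries, and Kcnj8 and Kcnj11, the pores of ATP-sensitive channels, had 9 and 10.

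The K2P family, which carries background potassium leak, had 5 genes tested and 0 called by edgeR or DESeq2, with all 5 log2 fold changes below 0 and 2 at an unadjusted p under 0.05. Kcnk3 (TASK-type) had 2.38 and 3.39 CPM in control and 0.845 and 0.434 CPM in Isl1_KO (log2 fold change -2.14 ± 0.43, SE, adjusted p = 0.0781, edgeR). Kcnk2 (TREK-type) had 1.59 and 2.19 CPM in control and 0.538 and 0.607 CPM in Isl1_KO (log2 fold change -1.71, adjusted p = 0.0916, edgeR). Neither overlapped between the groups. Both were tested through their control level alone. Kcnk5 had 10.4 and 11.6 CPM in control and 10.8 and 9.63 CPM in Isl1_KO, and its interval of -0.52 to 0.29 on the log2 scale holds no 2-fold change.

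Potassium channels gated by calcium or sodium had 8 genes tested and 0 called by edgeR or DESeq2, with 1 gene lower and 1 higher at an unadjusted p under 0.05. The lower gene was Kcnn1, a small-conductance channel, at 15.5 and 14.1 CPM in control and 8.84 and 8.33 CPM in Isl1_KO (log2 fold change -0.79 ± 0.15, SE, adjusted p = 0.0707, edgeR). The higher gene was Kcnmb4, a beta subunit of the large-conductance channel, at 8.06 and 9.08 CPM in control and 10.8 and 16.3 CPM in Isl1_KO (log2 fold change 0.65, interval 0.02 to 1.28, adjusted p = 0.204, edgeR). Neither had overlapping groups. Per length, Kcnmb4 had a mean of 8.57 RPKM in control and 13.5 RPKM in Isl1_KO, where Cacnb3 alone among the channel genes was higher.

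Of the sodium channel genes, 9 were tested and 0 called by edgeR or DESeq2. Of these, 2 had an unadjusted p under 0.05, both lower and Scn7a among them. Scn7a, an atypical family member that senses extracellular sodium, had 6.02 and 5.47 CPM in control and 1.92 and 3.47 CPM in Isl1_KO (log2 fold change -1.10, adjusted p = 0.144, edgeR). Its groups did not overlap. Scn8a, a sodium channel pore best known from nerve cells, had 6.13 and 6.57 CPM in control and 5.07 and 5.73 CPM in Isl1_KO (log2 fold change -0.23, interval -0.72 to 0.25).

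Across the families, both Isl1_KO libraries were below both control libraries in 27 of the 61 genes (44.3%), where 29% of all genes tested were, and above in 6 (9.84%), where 29.2% were. The remaining 28 overlapped. The summed level of all channel genes was 538.2 and 563.9 CPM in control and 395.9 and 381.2 CPM in Isl1_KO. Without the 7 called genes it was 455.5 and 471.3 CPM against 384.3 and 367.1 CPM, so a gap between the groups was also present in the summed level of the others. The called genes held 15.9% of the channel CPM in control and 3.31% in Isl1_KO.

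Among the 54 genes that were tested and not called, the log2 fold changes ran from -2.14 to 0.67. The 95% interval lay within -1 and 1 for 16 of them, while it reached below -1 for 29 and above 1 for 14. A 2-fold change lies inside those intervals, except for Kcnk3. The interval of Kcnk3, -3.23 to -1.04, lies wholly beyond a 2-fold decrease. The 18 genes with 20 to 36 reads in all were not tested. At the limit of 20 reads, Cacna1i had 20, Kcna1 and Kcna7 had 21 and Kcng3 had 22, while Kcnd2, Kcnc1, Kcne3, Kcnj10 and Kcnh8 had 16 and were left out. Among genes known from the adult heart, Kcne1 had 7 reads, Kcnip2 had 15 and Kcnd2 had 16.

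The 2 Isl1_KO clones differed more from each other than the 2 control clones did. The median absolute log2 difference within a pair over the 61 channel genes was 0.188 in control and 0.379 in Isl1_KO, and over all genes tested it was 0.0796 and 0.181. A difference of over 1.5-fold within the pair was seen for 6 channel genes in control and 29 in Isl1_KO. With each Isl1_KO clone set against the control mean, both clones were lower for 36 tested channel genes, both were higher for 9, and 16 were split. These counts of pairs and clones were not made over all genes, so whether they are unusual was not tested.

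**Figure D4:**
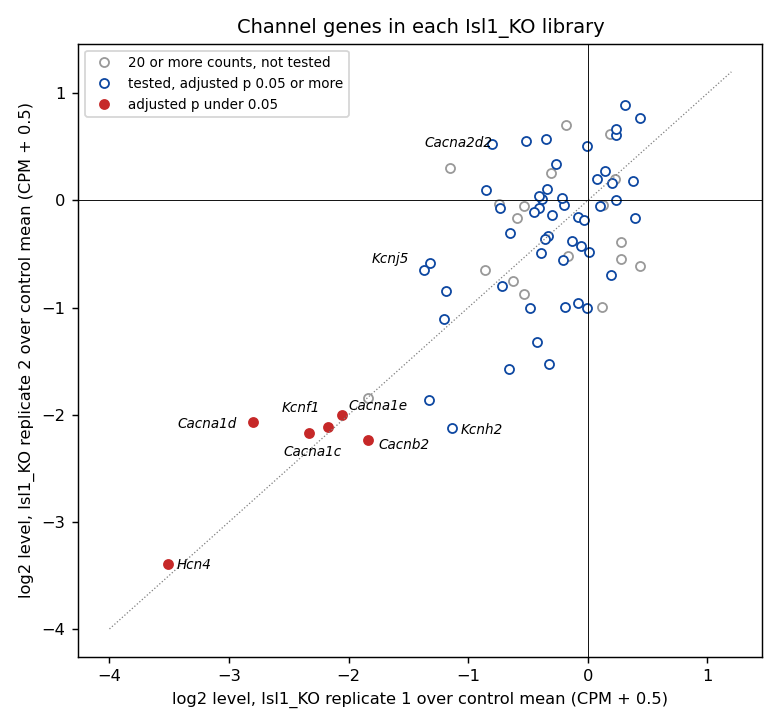
Log2 level of the channel genes reported here in Isl1_KO replicate 1 (x axis) and replicate 2 (y axis), each over the control mean, with 0.5 CPM added, and the dotted line marking equal values. The called genes lie below -1.5 on both axes, while Kcnh2 is lower in replicate 2 than in replicate 1 and Cacna2d2 has opposite signs in the clones.

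The criteria in the study's methods are an absolute log2 fold change over 0.58 and an unadjusted p under 0.05 in DESeq2. By these, 14 of the 79 channel genes were lower (17.7%) and 0 higher. Of the 16855 genes with any read, 4.57% were lower and 1.32% higher. The 79 had at least 20 reads each, while the 16855 include genes with fewer, so these shares are not like for like. With edgeR in place of DESeq2, 17 of the 61 channel genes tested were lower and 2 higher, Kcnmb4 and Kcns3. The shares of all genes at both criteria were not counted for edgeR, so the DESeq2 shares do not apply to these counts. By the unadjusted p alone, 12.2% of the 12715 genes tested by edgeR were lower and 11% higher. The 7 called genes were among the 14, and the other 7 were Cacna2d1, Kcnh2, Kcnh7, Kcnj5, Kcnk3, Kcnn1 and Scn7a.

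Proteins that bind these channels or work beside them in the membrane were followed as a list of 55 genes, of which 39 were tested. Of these, 7 fell (17.9%, beside 1.94% of all genes), and 0 rose by edgeR. With an unadjusted p under 0.05, 15 were lower and 3 higher by edgeR, where 12.2% and 11% of all genes were. DESeq2 called 10 lower and 1 higher, where 3.34% and 1.33% of 12933 genes were. The median log2 fold change was -0.35. Slc8a1, the sodium-calcium exchanger that removes calcium after each beat, fell from 115.1 ± 2.76 to 4.37 ± 2.16 CPM (mean and SD, n = 2 per group), a log2 fold change of -4.74 ± 0.27 (SE, adjusted p = 0.00368, edgeR). Popdc2 and Popdc3, membrane proteins that bind cAMP and modulate K2P channels, fell by 3.11 and 2.73 on the log2 scale. Popdc3 had 0.615 and 0.434 CPM in Isl1_KO, below the level the test needed. It was tested through its control level alone, so its lower value in Isl1_KO was partly fixed by the filter. Smaller decreases were called for Atp1b1, the beta subunit of the sodium pump (-0.93), Atp2b1, a calcium pump of the cell membrane (-0.51), Nedd4l, a ubiquitin ligase of sodium channels (-0.91), and Rem2, a small GTPase that inhibits L-type channels (-0.91).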

How the data were processed

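RNA was measured in 4 libraries, 2 control and 2 Isl1_KO, grouped by sample title. Titles and methods call Isl1_KO a knockout and the series design text a knockdown, and the titles were used. The authors mapped stranded poly(A) reads to mm9 with STAR (introns of 20 to 500000 bases) and counted exonic reads per RefSeq transcript with HOMER on both strands, and these deposited counts are whole reads. The RPKM values deposited by the authors were not used, and RPKM was computed here from CPM and the deposited transcript length. The authors' comparison columns from DESeq2 were also not used. Of these, the deposited signal column holds mean normalized counts, the deposited log2 columns hold the fold change and its standard error, the score deposited by the authors is a Wald statistic, and their deposited p-value columns hold raw and adjusted p. Versions of STAR, HOMER, DESeq2 and edgeR as used by the authors are not given in the sources used here. The number of value columns not matched to a sample was 0.

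Of 31507 entries, the one with the highest summed count was kept per symbol. Symbols were then fitted together with edgeR 4.0.16 in R 4.3.3 (TMM, filterByExpr, glmQLFit, two-sided, no covariate), and DESeq2 1.42.0 was the alternative. The pair differences used CPM plus 0.5. The estimated biological coefficient of variation was 11.1%. The scripts were tested on simulated data. Pluripotency markers summed to 50.85 and 53.4 CPM in control and 16.3 and 48.41 CPM in Isl1_KO. Of the 5 tested genes, 0 were called by edgeR and 0 had an unadjusted p under 0.05. Tdgf1 made up much of the control sum, at 39.6 and 40.4 CPM in control and 3.31 and 20.7 CPM in Isl1_KO. Of the 5 tested, 2 had a log2 fold change below 0 and 3 above. Pou5f1, and Zfp42 and Fgf4, which were not tested, had both Isl1_KO libraries above both control libraries. Positions came from GENCODE vM1 (NCBIM37, the assembly behind mm9), where 76 of the 79 reported genes were placed.

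The members and lists were chosen with earlier results of these data known. Genes were named where they were called, where they are well-known cardiac channels, where they were among the 5 highest per length, or where they had the 5 largest changes in either direction. Kcnk2, Kcnk5, Kcnn1, Kcnb2, Kcnh7, Kcnq5, Scn7a, Scn8a, Cacna1b and Cacna2d2 were added after their values were seen. Some genes are counted but not reported here by name. Alternatives were other normalizations, filters, entries and tests, leaving out each library, and the replicate number as a block.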

Additional observations from a re-analysis of the deposited data

How the results depend on the processing

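The main fit called 7 channel genes and 2.45% of all genes tested, and each count below has the all-gene share beside it. The count was 7 with DESeq2 size factors (2.45%) and with all transcript entries (2.15%). DESeq2 called 9 (4.67%), adding Cacna2d1 and Kcnh2. With no filter it was 8 (2.92%), adding Kcnh2. With the dispersion of the Isl1_KO pair it was 9 (3.84%), adding Kcnh2 and Kcnk3. Where every library needed 10 counts it was 5 (1.8%), and Kcnf1 was among those not tested. Against 1.5-fold it was 5 (0.724%), where Cacna1e and Cacnb2 lost their call. Leaving out 1 library moved the count between 1 and 29. Without control replicate 1, and likewise without control replicate 2, 1 gene (Hcn4) remained. Without Isl1_KO replicate 1 there were 29 (24 lower, 5 higher), and without Isl1_KO replicate 2 there were 21 (20 lower, 1 higher), each including the original 7, where 49.4% and 32.7% of all genes were called. Without control replicate 1 or 2, 0.215% and 0.244% of all genes were. The lone sample is then assumed to vary like the other group, and the biological coefficient of variation was 16.3% from the Isl1_KO pair and 1.29% from the control pair. The number lower ranged from 1 to 24 and the number higher from 0 to 5 in these fits. With the replicate number as a block, 8 channel genes were called (adding Kcnh2), where 3.37% of all genes were. But the deviations of libraries with the same number were unrelated (r = 0.0105 across 12715 genes, which are not independent replicates), so the numbers are names only. Partner genes called, 7, became 11 with DESeq2, 10 with no filter, 4 where every library needed 10 counts, 1 against 1.5-fold, 8 with the block and 1 to 27 without 1 library. The 14 genes at the study's criteria became 9 with an adjusted p, 19 with edgeR (17 lower, 2 higher), 12 with the block and 8 to 18 without 1 library. The Isl1 log2 fold change was -4.75 to -4.08 without 1 library. Genes near 0 changed sign. Without 1 library, Cacnb3 ran from -0.056 to 0.11, Hcn2 from -0.14 to 1.28, Hcn3 from -0.53 to 0.026, Kcnd3 from -0.12 to 0.50 and Kcnj3 from -0.53 to 0.77. The cause was not tested. Depth limits the genes under about 1 CPM, where 3 counts are 0.231 to 0.341 CPM.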
